A study of Mus musculus with 20 samples.

Results

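Dermal papilla cells were followed in single-cell RNA profiles of anagen mouse dorsal skin. Barcodes were kept from 500 detected genes upwards unless over 15% of their UMIs (unique molecular identifiers, each standing for 1 captured RNA molecule) were mitochondrial. A kept barcode was a member if Corin, Rspo3, Wif1 and Hhip together gave 4 UMIs or more and if, per 10000 of its UMIs, Krt14 and Krt5 gave fewer than 50 and Pmel and Dct fewer than 30. The members were thus chosen by the measured counts of those 8 genes, whose levels are given as a description only. The rule found 467 members among 11455 kept barcodes of the Fgf5-/- library and 630 among 14156 kept barcodes of the control library, 1097 of 25611 in all. The Fgf5-/- group was labelled Nfatc1-CreER;R26R;mTmG;Fgf5-/- (16 listed samples, tamoxifen for 3 days from postnatal day 23 or 24) and the control group Nfatc1-CreER;R26R;mTmG (4 listed samples, tamoxifen for 3 days from postnatal day 21 or 22). Both groups therefore carry the tamoxifen-dependent Nfatc1-CreER driver and the reporters, the start of tamoxifen differs with genotype, and the labels give neither sex nor age at harvest. Each group was deposited as 1 pooled matrix with no map from barcodes to samples, so each counts as 1 sample: no difference between the libraries has a replicate check, genotype and library cannot be told apart, and no p-value was computed. Intervals are exact 95% intervals that cover counting error only.

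The dermal papilla is a small cluster of mesenchymal cells enclosed by the base of the hair follicle. It signals to the matrix cells that build the hair shaft, through Wnt agonists such as the R-spondins, through BMP and FGF ligands and their antagonists, and to melanocytes, whose choice of pigment it sets with agouti. Fgf5 encodes a secreted fibroblast growth factor whose loss prolongs anagen and lengthens the coat, and the papilla carries FGF receptors. The comparison addresses what these cells express in anagen skin that lacks Fgf5.

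The label dermal papilla was checked with markers that the rule did not use. For comparison, the other kept barcodes were sorted by counts of marker genes into 8 gates of cells, named after those markers. Crabp1, a retinoic acid-binding protein, stood at 513 CPM (UMIs per 1000000 UMIs) in the summed Fgf5-/- members and at 1952 CPM in control members, against 89.0 and 231 CPM in the fibroblast gate, the highest of the other gates. Alx4, a homeobox factor of the papilla, stood at 73.0 and 125 CPM in members of the Fgf5-/- and control libraries and at no more than 1.08 and 1.77 CPM in any other gate. Vcan, which encodes versican, stood at 1108 and 1825 CPM, and Sox2, the factor of guard, awl and auchene hair papillae, at 13.7 and 39.4 CPM. Levels of Vcan and Sox2 in the other gates are not given here. Although the tissue label reads epidermis, the members thus carry the mesenchymal papilla profile in both libraries. Summed markers of other cells in Fgf5-/- and control members were 2242 and 1010 CPM for keratinocytes, 2168 and 1542 CPM for fibroblasts, 369 and 509 CPM for melanocytes and 54.5 and 120 CPM for T cells. They were 1816 and 1668 CPM for the hair lineage and 813 and 681 CPM for the dermal sheath. The endothelial list summed to 58.0 and 135 CPM, nearly all of it Pecam1 (45.9 and 118 CPM), with Cdh5 at 0.956 and 0.113 CPM and Cldn5 at 0.319 and 1.47 CPM. No UMI of the Y-linked genes listed was seen in members of either library.

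Depth split the members into 2 classes, and the split differed between the libraries. The median member held 3566 UMIs and 1685 genes in the Fgf5-/- library, against 9164.5 UMIs and 2866 genes in control, and the summed members held 3138221 and 8834168 UMIs. Members with at least 32 rule-gene UMIs per 10000, called dense members here, numbered 333 in Fgf5-/- and 491 in control. Of these, 60 Fgf5-/- and 251 control cells reached 8000 UMIs, with medians of 17820 and 27325 UMIs, and 273 and 240 cells lay below 8000, with medians of 2822 and 2645.5 UMIs. The other gated cells were less unequal: the median melanocyte-gate cell held 13064.5 UMIs in Fgf5-/- and 14078 in control, and the median fibroblast-gate cell 8616 and 7182. Members below the density of 32 numbered 134 and 139 and held 39.7% and 16.4% of all member UMIs. Many of them carried genes of other cells: below a density of 16, Dcn, a fibroblast proteoglycan, stood at 2477 and 1565 CPM and Krt17 at 2530 and 1222 CPM. For this reason each result below is given in all members and, where it matters, in dense members of each depth class, cut points that were chosen after the data were seen. In shallow dense members 4.98% of Fgf5-/- and 4.11% of control UMIs came from a list of nuclear-retained RNAs, against 2.96% and 1.58% in deep ones. The part of RNA quality in these classes was not tested.

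**Figure D1:**
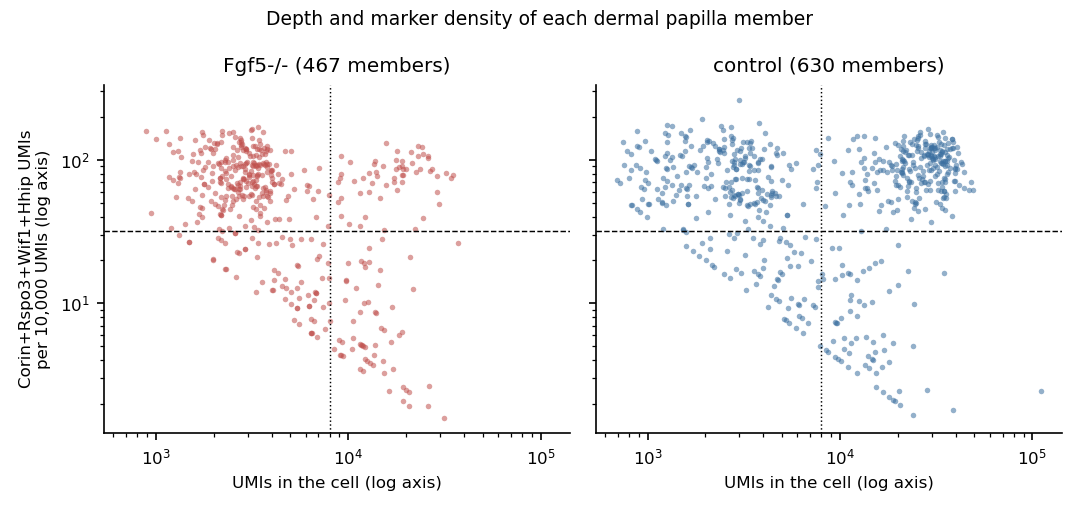
Each point is 1 member, with its UMI total (log axis) against its Corin, Rspo3, Wif1 and Hhip UMIs per 10000 UMIs (log axis), for the Fgf5-/- library (left) and the control library (right). The dashed line marks a density of 32 and the dotted line 8000 UMIs. Dense members form a shallow and a deep cloud in both panels, with 60 cells in the deep cloud of Fgf5-/- and 251 in that of control.

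Members made up 4.08% (3.72% to 4.46%) of kept Fgf5-/- barcodes and 4.45% (4.12% to 4.80%) of kept control barcodes, a log2 ratio of -0.13 (-0.30 to 0.05). When every barcode was first thinned to 3000 UMIs, 223 of 8738 Fgf5-/- barcodes (2.55%) and 396 of 10172 control barcodes (3.89%) met the rule, a log2 ratio of -0.61 (-0.85 to -0.37). The direction depended on depth class. Dense members were 1.35% of Fgf5-/- and 4.77% of control barcodes of 8000 UMIs or more, but 3.89% of Fgf5-/- and 2.70% of control barcodes below 8000 UMIs. The share of papilla cells could not be read apart from depth in these data. At the minimum of the rule, 26 Fgf5-/- and 36 control members held exactly 4 rule-gene UMIs, while 43 and 71 barcodes missed it with 3. Crabp1 stood at 161 and 231 CPM in those with 4 UMIs in Fgf5-/- and control, and at 292 and 237 CPM in those with 3.

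A ratio between the libraries is called large here if it is at least 2-fold, its nearer bound lies beyond 1.5-fold and the gene reaches 100 CPM in the higher library, and only such genes are said to rise or fall. Of 1985 genes compared, 130 (6.55%) rose and 164 (8.26%) fell in Fgf5-/- members relative to control members, with a median log2 ratio of -0.05. In dense members the shares were 8.07% higher and 8.22% lower of 2044 genes, in shallow dense members 5.37% and 4.47% of 2013, and in deep dense members 10.3% and 9.15% of 2076. Ratios that were large in all members and in both depth classes numbered 55 higher and 40 lower. Ratios also moved with transcript length. In the quintile of genes with the shortest transcripts (297 to 1375 bases) the median log2 ratio was -0.52, and in the quintile with the longest (5622 to 93147 bases) it was 0.37. The same order of those 2 medians was seen in all 9 other sets of kept barcodes, with -0.12 to -0.33 in the shortest quintile and 0.08 to 0.44 in the longest. The part of transcript length in single results was not tested, and the length quintile is given beside some of the key genes.

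Papilla markers remained detectable in both libraries, and 4 of those outside the rule fell in Fgf5-/- members. Of the 4 genes of the rule, Corin, a protease that modifies coat colour, had 595 CPM in Fgf5-/- members and 1164 CPM in control members. Rspo3, a Wnt agonist, had 1191 and 1569 CPM, and Wif1, a Wnt inhibitor, 2480 and 4332 CPM. Hhip, a Hedgehog inhibitor, had 1046 and 827 CPM. Within shallow dense members the log2 ratios were -0.83 for Corin, -0.32 for Rspo3, -0.01 for Wif1 and 0.65 for Hhip, and within deep ones -0.36, 0.22, -0.65 and 0.73 in the same order. Of 17 compared papilla markers outside the rule, 4 fell and 0 rose, against 8.26% lower and 6.55% higher among all genes, with a median log2 ratio of -0.46 over the 26 listed genes of at least 10 CPM, the minimum for all list medians here. In dense members 3 of 18 fell and the median was -0.12. Those that fell in all members were Crabp1, Notum, Bmp3 and Rspo2. Of these, Crabp1 and Bmp3 had large ratios in each depth class, and Pdgfra, a platelet-derived growth factor receptor of the list, rose in deep dense members (1.08). Crabp1 (chromosome 9, 54764748 to 54773110, plus strand, GRCm38) had a log2 ratio of -1.93 (-2.00 to -1.85) in all members, -1.33 (-1.49 to -1.16) in shallow and -1.45 (-1.55 to -1.36) in deep dense members. Its longest transcript, at 802 bases, lies in the shortest quintile, and its ratio in the fibroblast gate was -1.38 (-1.49 to -1.27). Notum, an enzyme that inactivates Wnt ligands, stood at 64.7 CPM in Fgf5-/- and 163 CPM in control members. Its log2 ratios in the depth classes, -0.82 and -0.93, missed 2-fold. Vcan (log2 ratio -0.72), Lef1, the Wnt effector (144 and 216 CPM, -0.58), and Alpl, the alkaline phosphatase that marks papillae (283 and 253 CPM, 0.16), were not large ratios.

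The melanocyte signals Asip and Edn3 fell in Fgf5-/- members. Asip (agouti, which the deposited gene table names a, chromosome 2, 154791402 to 155051012, plus strand), the antagonist of the melanocortin receptor that turns melanocytes to yellow pigment, had 83.2 CPM (73.4 to 93.9) in Fgf5-/- members and 522 CPM (507 to 537) in control members. The log2 ratio was -2.65 (-2.84 to -2.47). Among members thinned to 2000 UMIs, 23 of 407 Fgf5-/- members (5.65%) and 114 of 537 control members (21.2%) held an Asip UMI, against 0% and 1.18% of T cell gate cells thinned alike, which should lack the gene. Without thinning the shares of members were 8.78% and 36.0%. The fall was present at both depths, with 89.0 against 481 CPM in shallow and 170 against 637 CPM in deep dense members. Edn3, the endothelin that supports melanocyte growth (chromosome 2, 174760619 to 174784042, plus strand), had 216 CPM (200 to 233) in Fgf5-/- and 698 CPM (681 to 716) in control members, a log2 ratio of -1.69 (-1.81 to -1.58). Its share of thinned members with a UMI was 26.3% in Fgf5-/- and 53.6% in control (37.3% and 69.8% unthinned), against 0.153% and 1.18% in the T cell gate. In deep dense members Edn3 had 386 against 818 CPM, and in shallow ones 247 against 805 CPM. Asip lies in the shortest length quintile (731 bases, median ratio of that quintile -0.52) and Edn3 in the middle one (3117 bases, median -0.03). Of the 3 compared genes of the melanocyte list, Corin was the other, and Kitl, the ligand of the melanoblast receptor Kit, had 33.1 and 16.8 CPM, too low to compare.

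Secreted modulators of the Wnt pathway were among the genes that fell. Of 10 compared Wnt ligands and modulators, 6 fell and 0 rose (median log2 ratio of the list -0.59), against 8.26% lower among all genes. The list includes Wif1 and Rspo3, rule genes that chose the members, so this count and median are a description only. Neither is among the 6 genes that fell. They were the agonists Rspo1, Rspo2 and Rspo4 and the antagonists Sfrp1, Frzb and Notum, so both agonists and antagonists fell. Sfrp1 (chromosome 8, 23411502 to 23449632, plus strand), a secreted frizzled-related antagonist, had 648 CPM (620 to 677) in Fgf5-/- and 2450 CPM (2418 to 2483) in control members, a log2 ratio of -1.92 (-1.98 to -1.85). It was -1.91 in shallow and -1.22 in deep dense members. Sfrp1 was also lower in Fgf5-/- cells of the keratinocyte gate, with 160 and 357 CPM (-1.16). Its ratio was -0.64 in the mural or sheath gate and 0.85 in the myeloid gate. Its transcript lies in the fourth length quintile, whose median was 0.22. Rspo4, the R-spondin known from nail growth, had 107 CPM in Fgf5-/- and 320 CPM in control members, with log2 ratios of -1.57 in all, -1.03 in shallow and -1.19 in deep dense members. Rspo1 had 176 and 372 CPM, Rspo2 112 and 227 CPM, and Frzb 56.4 and 122 CPM. In dense members only Rspo4, Sfrp1 and Notum of the 6 remained large. Wnt5a, a non-canonical ligand, had 322 and 284 CPM, and 0 of 3 compared Wnt targets had a large ratio. Sostdc1, an antagonist of both Wnt and BMP signalling, stood at 1081 and 2076 CPM (log2 ratio -0.94, and -0.42 in deep dense members).

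**Figure D2:**
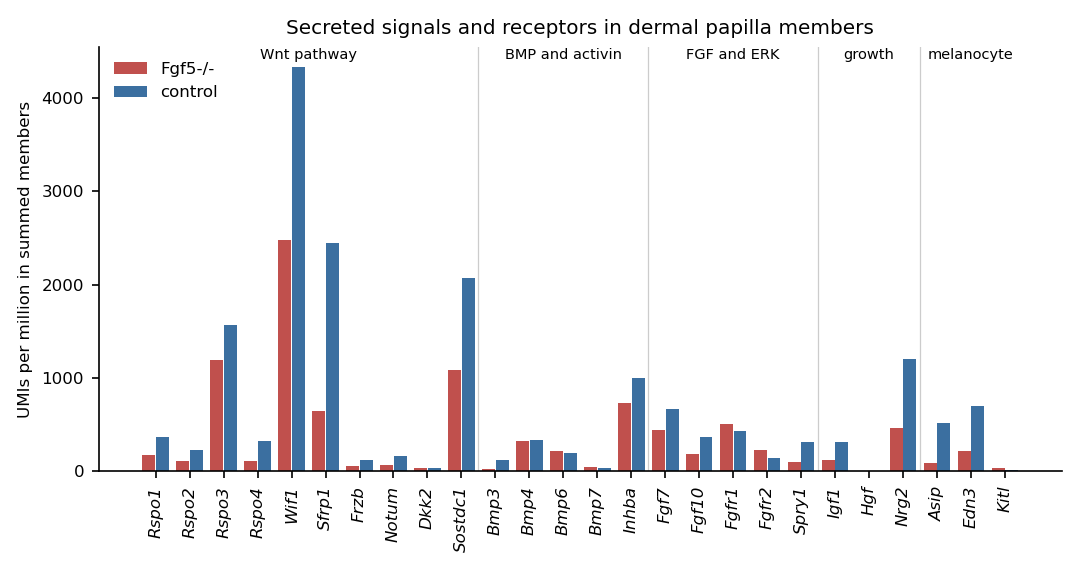
CPM in summed dermal papilla members for secreted signals, receptors and feedback genes, by pathway, with the Fgf5-/- library left of control in each pair of bars. Each bar is 1 pooled library with no replicate error. Sfrp1, Rspo4, Nrg2, Asip and Edn3 are lower in Fgf5-/-, while Bmp6, Fgfr1 and Fgfr2 are higher, without a large ratio.

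In the BMP list, 1 of 9 compared genes rose and 1 fell, against 6.55% and 8.26% among all genes. Bmp2 rose to 177 CPM in Fgf5-/- members, against 85.7 CPM in control (log2 ratio 1.04), and was higher in deep dense members (1.73) but not large in shallow ones (0.73). Bmp3, an atypical BMP that antagonises the others, fell to 27.1 CPM (21.6 to 33.5) in Fgf5-/- members, against 115 CPM (108 to 123) in control. Its log2 ratio was -2.09 in all, -1.92 in shallow and -1.54 in deep dense members, and its transcript of 6609 bases lies in the longest quintile. Bmp4 had 322 and 330 CPM, Bmp6 219 and 191 CPM, and Nog, the BMP antagonist noggin, 88.6 and 76.7 CPM. The BMP target Id3 had 1868 and 3728 CPM, which did not reach 2-fold, although Id3 did fall under the TMM scaling described below. Inhba, which encodes the activin subunit of the papilla, had 733 and 1002 CPM, with a ratio of 0.07 in deep dense members.

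In all members no compared FGF ligand or receptor gene had a large ratio, and 1 feedback gene did. Fgf7, a ligand of the epithelial receptor Fgfr2, had 440 CPM in Fgf5-/- and 663 CPM in control members, and the related Fgf10 188 and 371 CPM. Their log2 ratios of -0.59 and -0.98 in all members were -0.27 and -0.91 in shallow and -0.22 and -0.38 in deep dense members. Fgfr1, the main receptor for Fgf5, had 506 and 430 CPM and Fgfr2 224 and 146 CPM. Of the 6 compared receptor and co-receptor genes 0 had a large ratio, the syndecan gene Sdc4 being the farthest apart, with 498 and 285 CPM. Fgfr2 had a large ratio in shallow dense members (1.34) and Sdc4 in deep ones (1.17). Fgf5 itself was nearly absent from members, with 7 UMIs in Fgf5-/- and 15 in control, and was highest in the mural or sheath gate, with 50.1 and 81.7 CPM. The labels do not say which part of the gene the allele lacks, so these 3' counts do not check it. Of 3 compared ERK feedback genes, 1 fell, against 8.26% lower among all genes. Spry1, a feedback inhibitor of receptor tyrosine kinase signalling (chromosome 3, 37639947 to 37644598, plus strand), fell to 100 CPM (89.3 to 112) in Fgf5-/- members, against 310 CPM (298 to 321) in control. Its log2 ratio was -1.63 in all and -1.23 in each depth class. Spry2 had 105 and 110 CPM, and Spry4 26.4 and 52.5 CPM. Dusp6 and Etv5, other genes induced by ERK signalling, had 53.9 and 23.2 CPM and 14.3 and 24.0 CPM, below the level compared.

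Of 7 compared growth factors and binding proteins for epithelium, 2 fell, against 8.26% of all genes, and in deep dense members neither had a large ratio while the binding protein gene Igfbp7 did (-1.18). Igf1, the insulin-like growth factor that acts on matrix keratinocytes, had 125 CPM in Fgf5-/- and 312 CPM in control members (log2 ratio -1.32), and its ratio was -1.24 in shallow dense members and missed 2-fold in deep ones (-0.82). Nrg2, a neuregulin, had 461 and 1208 CPM (log2 ratio -1.39), with -0.97 in shallow and -0.94 in deep dense members. The Hedgehog targets Ptch1 and Gli1 had 424 and 365 CPM and 75.8 and 58.3 CPM, and neither ratio was large. Of 6 compared hormone and nuclear receptor genes only Thrb, a thyroid hormone receptor, passed, against 8.26% lower among all genes. Thrb had 66.0 CPM in Fgf5-/- and 163 CPM in control members. Its ratio was large in shallow (-1.21) but not in deep dense members (-0.68).

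Chemokines moved in both directions: of 5 compared, 3 rose and 1 fell, against 6.55% and 8.26% among all genes. Ccl2, which recruits monocytes (chromosome 11, 82035571 to 82037453, plus strand), rose to 1558 CPM (1515 to 1602) in Fgf5-/- members, against 239 CPM (229 to 250) in control, a log2 ratio of 2.70 (2.63 to 2.78). In shallow dense members the levels were 938 and 89.7 CPM and in deep ones 2663 and 261 CPM, so the ratio stood at 3.39 and 3.35. Its transcript of 1096 bases lies in the shortest quintile, whose median ratio was -0.52. After thinning to 2000 UMIs, 27.3% of Fgf5-/- and 16.4% of control members held a Ccl2 UMI, against 1.83% and 2.94% of T cell gate cells. Unthinned, the shares of members were 32.5% and 37.1%, in the other order, with control members the deeper ones. Ccl7, a neighbouring monocyte chemokine, had 187 UMIs (59.6 CPM) in Fgf5-/- and 25 UMIs (2.83 CPM) in control members, below the level compared. Cxcl2, a neutrophil chemokine, had 169 CPM in Fgf5-/- and 38.7 CPM in control members (log2 ratio 2.13), 1.71 in shallow and 2.30 in deep dense members. It was far higher in the myeloid gate, with 4965 and 1264 CPM, and the part of free RNA from those cells was not tested. Cxcl10 rose in all members but not in dense members (36.4 and 17.9 CPM). Cxcl14, a chemokine of healthy skin, fell to 420 CPM (398 to 443) in Fgf5-/- members, against 2102 CPM (2072 to 2133) in control, with ratios of -2.32 in all, -2.15 in shallow and -2.02 in deep dense members. Cxcl14 was also lower in Fgf5-/- cells of the keratinocyte gate, with 491 and 990 CPM. The transcripts of Cxcl2 and Cxcl14 both lie in the second length quintile, whose median ratio was -0.31.

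Nfkb1, Nfkbiz, Icam1, Stat3 and Fosl2 also had large ratios in all members and at both depths. These genes, other than Fosl2, Errfi1, Trib1, Tnfrsf12a and list members of high level, were chosen after their values were seen. Nfkb1, a subunit of NF-kappaB, had 398 CPM in Fgf5-/- and 123 CPM in control members, with log2 ratios of 1.70 in all, 1.61 in shallow and 1.79 in deep dense members. Nfkbiz, a nuclear coactivator of NF-kappaB, had 483 and 208 CPM (1.21, 1.66 and 1.69), and the adhesion molecule Icam1 370 and 174 CPM, a ratio of 1.09 that was large at both depths too. Nfkbia, the inhibitor that NF-kappaB induces, did not share the direction, with 1718 and 2695 CPM and a ratio of -0.65. Stat3 had 334 and 164 CPM (log2 ratio 1.03), and its target Socs3 199 and 204 CPM (-0.03). Fosl2, an AP-1 subunit, rose to 236 CPM in Fgf5-/- members, against 47.1 CPM in control (2.32). Its transcript lies in the longest quintile (median ratio 0.37), and those of Nfkb1 and Nfkbiz lie in the fourth (0.22). Those of Icam1 and Errfi1 lie in the middle quintile (-0.03). Fos had 821 and 1263 CPM, Egr1 1029 and 1585 CPM and Jun 1409 and 1177 CPM, none of them large. Of 22 compared immediate early genes, 4 rose and 0 fell, against 6.55% and 8.26% among all genes. Errfi1, a feedback inhibitor of the EGF receptor, rose to 535 CPM, against 114 CPM in control (2.23). Trib1 and Tnfrsf12a, the TWEAK receptor, had ratios of 1.89 and 1.88 and Cebpd 1.58. Cdkn1a, the cyclin-dependent kinase inhibitor p21, had 342 and 143 CPM (1.26).

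The stretch before the start site of Cxcl2 is shown because it was the only match among the risen genes searched, and that of Edn3 because it was the only match among the fallen ones. Each is the 250 bases before the RefSeq start site (GRCm38.p6), in lower case with motif matches in capitals. For 12 genes that rose at both depths a form of the NF-kappaB site was searched on both strands (GGG, any pair of bases, then TTTCC), and 8 of the 12 had an entry. For 9 genes that fell, the motif CTTTGNNC, a loose form of the TCF/LEF site, was searched on both strands, and 7 had an entry. The 2 matches in Cxcl2 do not overlap.
Cxcl2, chr5:90903649-90903898, plus strand: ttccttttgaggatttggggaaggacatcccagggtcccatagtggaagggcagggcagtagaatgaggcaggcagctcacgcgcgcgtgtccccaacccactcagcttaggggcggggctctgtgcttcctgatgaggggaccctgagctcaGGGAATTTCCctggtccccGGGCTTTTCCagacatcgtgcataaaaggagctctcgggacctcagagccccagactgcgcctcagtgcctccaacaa
Edn3, chr2:174760369-174760618, plus strand: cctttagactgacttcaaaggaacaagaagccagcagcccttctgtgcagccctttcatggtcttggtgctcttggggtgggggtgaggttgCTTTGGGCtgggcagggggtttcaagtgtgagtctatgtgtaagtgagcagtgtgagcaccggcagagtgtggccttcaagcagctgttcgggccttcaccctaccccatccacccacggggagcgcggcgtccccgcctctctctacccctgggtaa
The first motif occurred in 1 of the 8 searched, Cxcl2, with 2 matches beginning at -97 and -78 from the start site, and in 1.40% of all 27025 promoters of the same length. The second occurred in 1 of 7, Edn3, beginning at -158, and in 4064 of the 27025 promoters. These matches are descriptions of letters and not binding sites.

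**Figure D3:**
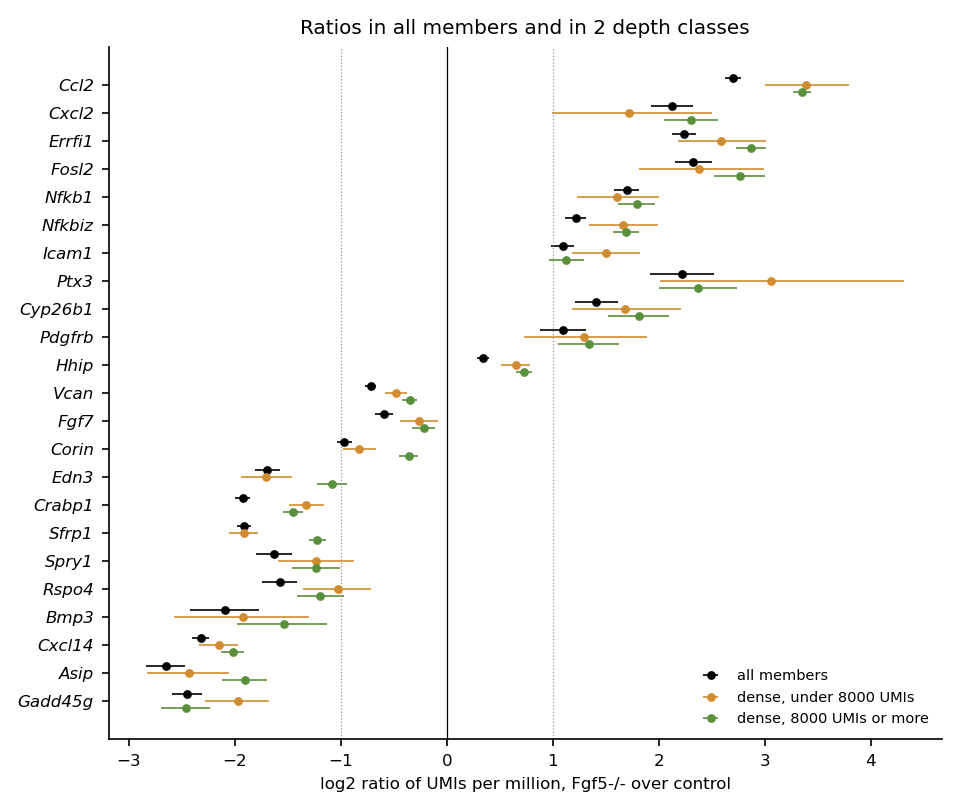
log2 ratio of CPM, Fgf5-/- over control, with exact 95% counting intervals, for genes named in the text, in all members (black), dense members under 8000 UMIs (orange) and dense members of 8000 UMIs or more (green). Dotted lines mark 2-fold. Ccl2 to Hhip lie right of 0 and Vcan to Gadd45g left of 0 in all 3 sets.

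Stress and matrix genes gave smaller sets. Among 6 compared glucocorticoid-responsive genes, Klf9, Errfi1 and Mt2 rose and 0 fell, against 6.55% higher and 8.26% lower among all genes. In dense members Klf9 and Errfi1 had large ratios and Mt2 did not. Klf9, a Krueppel-like factor, had 580 CPM in Fgf5-/- and 250 CPM in control members, with 1.07 in shallow and 1.60 in deep dense members, while Fkbp5 and Tsc22d3, other genes of the list, had 11.5 and 6.57 CPM and 77.4 and 92.5 CPM. Of 13 compared heat shock genes, Hspa1b and Hsph1 rose, 2 genes against 6.55% higher among all genes, Hspa1b to 350 CPM in Fgf5-/- against 148 CPM in control. Of 24 compared matrix genes, Col1a1, Thbs1 and Dcn rose and 0 fell, against 6.55% higher among all genes. In shallow dense members none of these 3 had a large ratio, and Thbs1 was under 100 CPM in dense members (73.4 and 15.4 CPM). Adamts1, of the same list, had a large higher ratio in dense members of each depth class but not in all members. Mmp2 had a large lower ratio in shallow dense members only. In dense members Col1a1 was at 446 and 171 CPM and Dcn at 135 and 42.0 CPM, against 3195 and 3597 CPM of Dcn in the fibroblast gate. The part of fibroblast RNA in this was not tested. Cyp26b1, which breaks down retinoic acid, rose to 129 CPM, against 48.7 CPM in control, and stayed large at both depths (1.68 and 1.81), while the retinoid binder Crabp1 fell. Ptx3, a pentraxin of innate immunity, reached 100 CPM only in dense members, with 105 CPM in Fgf5-/- and 19.9 CPM in control, and so did Pdgfrb, a platelet-derived growth factor receptor, with 130 and 50.8 CPM. Cyp26b1, Ptx3 and Pdgfrb were also chosen after their values were seen.

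Most nuclear-encoded mitochondrial genes of 4 groups had ratios below 0. These groups were formed by gene symbol after the data were seen. Among all 1985 genes compared, 948 had a ratio above 0. All 34 compared complex I subunit genes (Nduf) had log2 ratios below 0, with a median of -0.71, and 5 had a large ratio, against 8.26% lower among all genes. All 22 compared mitochondrial ribosomal protein genes were below 0 too, with a median of -0.88, and 9 fell. Of 15 compared ATP synthase genes (Atp5) 13 were below 0, with a median of -0.42, and of 11 cytochrome oxidase genes (Cox) 9, with a median of -0.38, and 0 of either group had a large ratio. The complex I sum was 4709 CPM in Fgf5-/- and 7711 CPM in control members, and the medians were -0.73 in shallow and -0.88 in deep dense members. The 11 genes of the mitochondrial genome went the other way: 10 had ratios above 0 and 1 rose, with summed levels of 47957 and 31143 CPM. That shift was not confined to members. The median mitochondrial share of UMIs was 4.57% and 3.03% in Fgf5-/- and control members, and 4.95% and 3.22% in all kept barcodes. Levels of the nuclear-encoded groups in other gates are not given here. Genes that fell had short transcripts: the median longest transcript was 1555 bases for 163 of the 164 genes that fell, 3885.5 bases for the 130 that rose and 2874 bases for all genes compared.

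The same contrast was set beside cells of the other gates, which come from the same 2 libraries. Of the genes with a large ratio in members, 54 that rose and 41 that fell also had a large ratio in the same direction in at least 1 of 9 other sets of kept barcodes (the 8 gates and the barcodes in none), and 76 and 123 in none. The latter include genes, such as Asip and Edn3, that did not reach 100 CPM in any other set. The same count was not made over all genes compared, so these numbers do not show what is particular to members. Neat1, a nuclear long noncoding RNA, rose in members (665 and 99.2 CPM) and in all 9 others. Ftl1-ps1, a ferritin pseudogene whose reads a near-identical parent gene can share, fell in members (80.9 and 1608 CPM) and in all 9 others. Gadd45g, a stress-induced growth arrest gene, fell to 134 CPM in Fgf5-/- members, against 731 CPM in control, and fell in 8 of the 9. Its transcript of 1071 bases lies in the shortest length quintile, whose median ratio in members was -0.52. Ccl2 differed between gates: it rose in the endothelial gate (1521 and 479 CPM) and the mural or sheath gate (822 and 272 CPM), had 790 and 503 CPM in the fibroblast gate and fell in the keratinocyte gate (56.1 and 141 CPM) and the T cell gate (50.4 and 101 CPM). Fosl2, Nfkb1, Nfkbiz, Icam1, Klf6 and Klf9 were compared in 7 to 9 of the others and had a large ratio in 0 of them. Errfi1 did so in 1 of 8. Nfkb1 and Fosl2 had log2 ratios of 0.80 and 0.68 in the fibroblast gate, and of -0.10 and 0.12 in the T cell gate. In the fibroblast gate Errfi1 had 225 and 154 CPM, and in the T cell gate 413 and 378 CPM. Asip, Edn3, Bmp3, Spry1 and Rspo4 did not reach 100 CPM in any other gate, so no ratio of theirs could be called large there. Below that level, Spry1 had 12.7 and 39.7 CPM in the keratinocyte gate (log2 ratio -1.65) and 42.4 and 78.7 CPM in the fibroblast gate (-0.89). In the mural or sheath gate it had 45.1 and 45.4 CPM (-0.01). None of these differences between gates was tested.

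**Figure D4:**
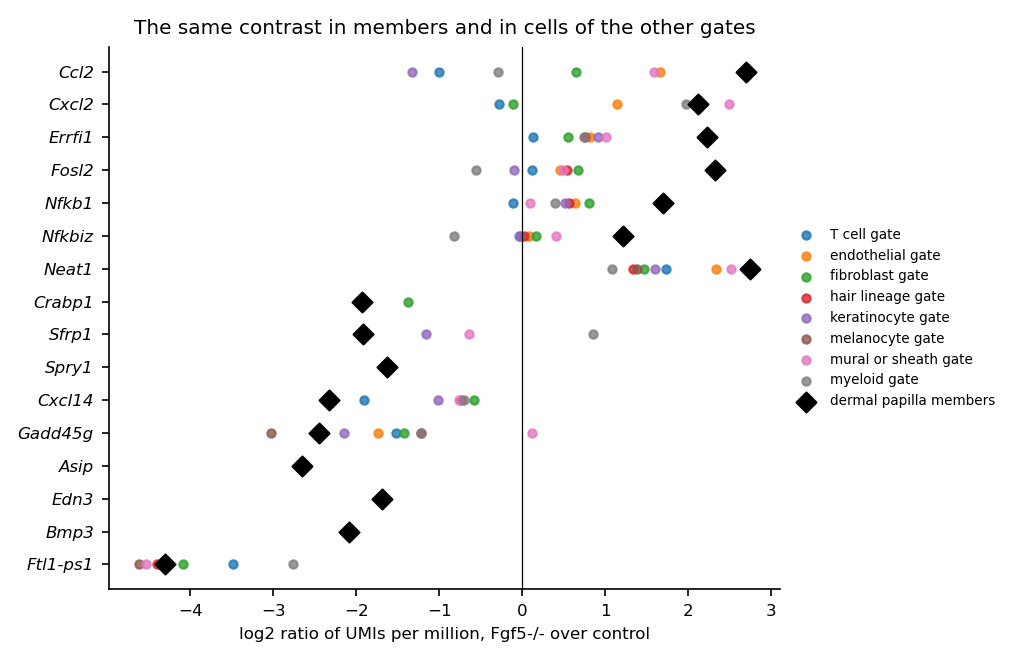
log2 ratio of CPM, Fgf5-/- over control, for named genes in dermal papilla members (black diamonds) and in cells of 8 other gates (coloured points, shown only where the gene reached 100 CPM). Neat1 and Ftl1-ps1 move alike in all gates, while Fosl2, Nfkb1 and Nfkbiz lie farther right in members than in the other gates.

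Some of the largest ratios belonged to genes of other cells. Npy fell to 7.01 CPM in Fgf5-/- members, against 222 CPM in control members, but had 5.81 and 5.96 CPM in dense members. It stood at 992 and 1878 CPM in the melanocyte gate, and 10 control members of low papilla density carried melanocyte genes. Epcam, Sprr1a, Lypd3 and Sfn, all epithelial, rose in all members and, except Sfn, did not pass in dense members. Of the other genes named for large ratios, Ptn and Ccnd2 rose in all members but were not large in dense members, and Noct, a circadian gene, was under 100 CPM there (80.3 and 16.5 CPM). Pou2f2, Aga, Emc2, Hmgn3, Coa3, Arl2 and Sdhaf4 fell by 1.70 to 2.42 on the log2 scale and stayed lower in dense members. Hbb-bs, a red-cell haemoglobin gene, had 9409 and 5517 CPM in shallow and 73.9 and 345 CPM in deep dense members of Fgf5-/- and control.

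Several papilla genes differed between members with and without Sox2. To read this at equal depth, the deep dense members were thinned to 8000 UMIs, which left 60 Fgf5-/- and 251 control cells. A Sox2 UMI was found in 8 of the 60 (13.3%, 5.94% to 24.6%) and in 50 of the 251 (19.9%, 15.2% to 25.4%). Wif1 was lower in cells with Sox2, with 1375 against 3611 CPM in Fgf5-/- and 2405 against 5823 CPM in control, log2 ratios of -1.39 and -1.28. Ndnf, which encodes a secreted neuron-derived factor, was lower with Sox2 by ratios of -1.16 and -1.05. Rspo3 was higher with Sox2 (0.69 and 0.79), as were Crabp1 (0.69 and 0.66) and Sostdc1 (0.93 and 1.75). Corin, Vcan and Inhba had ratios between -0.02 and 0.28 in both libraries. Wif1, Rspo3 and Corin belong to the rule and are given as a description. Asip, in contrast, was higher with Sox2 in control (1035 against 527 CPM) and lower in Fgf5-/- (31.3 against 180 CPM), where the 8 cells with Sox2 held 2 Asip UMIs. Ccl2 had log2 ratios of 0.20 (-0.06 to 0.44) in Fgf5-/- and 1.45 (1.18 to 1.71) in control, and Bmp4 0.00 (-0.59 to 0.54) and -0.87 (-1.21 to -0.55). In dense members thinned to 2000 UMIs, only 9 Fgf5-/- and 34 control cells held a Sox2 UMI. At that depth Wif1, Ndnf, Rspo3 and Sostdc1 kept their directions in both libraries. Asip, Crabp1, Vcan, Ccl2 and Bmp4 were among those that gave other values there. Asip with against without Sox2 had 111 against 100 CPM in Fgf5-/- and 515 against 535 CPM in control. Crabp1 had -0.13 (-1.20 to 0.77) in Fgf5-/- and 0.42 in control, and Vcan 0.85 and 0.74. Ccl2 had -0.55 (-1.40 to 0.18) in Fgf5-/- and 0.07 (-0.87 to 0.90) in control. Bmp4 had -0.97 (-2.86 to 0.41) in Fgf5-/- and -1.10 (-2.03 to -0.31) in control. Whether the split differs between the libraries was not tested.

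**Figure D5:**
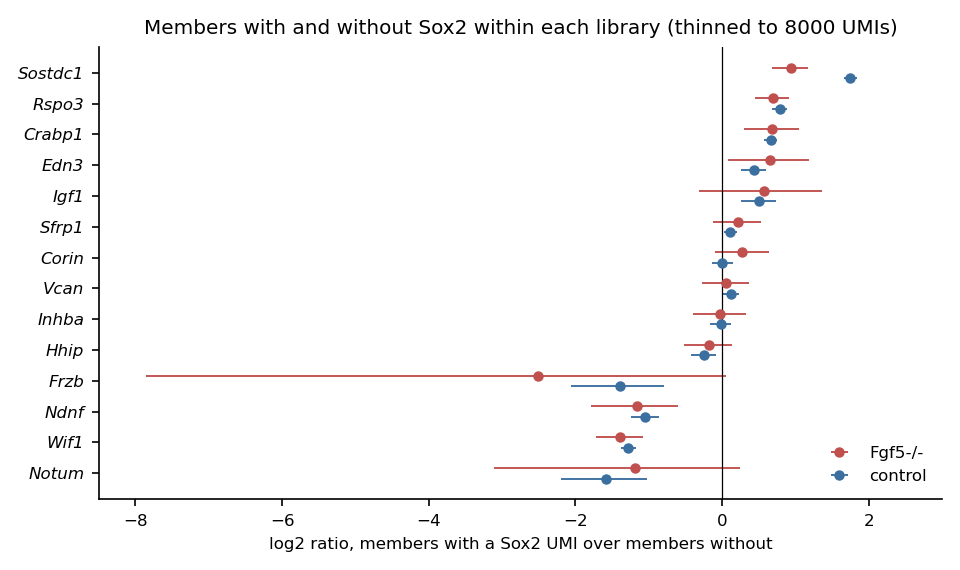
log2 ratio of CPM between deep dense members with and without a Sox2 UMI, after thinning to 8000 UMIs, in Fgf5-/- (red, 8 and 52 cells) and control (blue, 50 and 201 cells), with exact 95% counting intervals. Sostdc1, Rspo3 and Crabp1 lie right of 0 and Ndnf and Wif1 left of 0 in both libraries.

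The contrast between libraries had the same direction on either side of this split for most of the genes given here, but not for Cxcl2. With Sox2, Cxcl2 had 0 UMIs in Fgf5-/- and 18 UMIs (45 CPM) in control cells. Without Sox2 it had 154 and 40.4 CPM. Among cells with Sox2, Ccl2 had 2469 CPM in 8 Fgf5-/- and 490 CPM in 50 control cells, and among cells without it 2156 CPM in 52 and 180 CPM in 201 cells. Crabp1 had log2 ratios of -1.48 with and -1.51 without Sox2, Cxcl14 -1.90 and -2.14, Sfrp1 -1.13 and -1.24, and Errfi1 3.25 and 2.86. Spry1 had -0.68 (-1.72 to 0.22) with Sox2, an interval that holds 0, and -1.44 (-1.84 to -1.07) without it. Cells without a Sox2 UMI can still express the gene below this depth.

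Unsupervised grouping of all 1097 members gave 10 groups, most of them dominated by depth or by 1 library. In 5 groups at least 90% of the cells were dense members, and these held 311 Fgf5-/- and 475 control cells, 66.6% and 75.4% of the members. A shallow pair of these groups held 217 Fgf5-/- and 12 control cells, and 46 and 203 cells. A deep group led by Notum, Igfbp5, Pou2f2, Pappa2 and Frzb held 1 Fgf5-/- and 126 control cells. Another deep group, led by Asip, Ccl2, Sfrp2, Gpx3 and Sostdc1, with Sox2 at 106 CPM, held 33 and 69 cells, and another led by Ifitm1, Dio2, Aldh1a3 and Spry1 held 14 and 65. The other groups were led by genes of other cells. They were Tchh, Krt25 and Krt71 of the inner root sheath (80 and 60 cells), Acta2, Mgp, Lrrc15 and Tagln (49 and 38), Fmod, Tnmd and Lum (19 and 20), Cd3g, Trdc and Xcl1 of T cells (8 and 27), and Mlana, Tyr and Npy of melanocytes (0 and 10). The group led by Fmod, Tnmd and Lum had Crabp1 at 1854 CPM and Dcn at 9351 CPM, so high Crabp1 was not confined to dense members. Leading genes define the groups and are no result, and a group held mostly by 1 library may be that library rather than a kind of papilla cell.

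Papilla genes were also counted cell by cell at equal depth. Of members thinned to 2000 UMIs, all 4 rule genes were found together in 35.9% of 407 Fgf5-/- and 46.7% of 537 control members, and 60 and 93 shallower members were left out. The T cell gate used for background had medians of 2033 and 2375 UMIs before thinning. Among dense members alone the shares were 52.9% of 278 and 61.8% of 403. Wif1, a rule gene, was found in 88.2% and 87.0% of thinned members, against 1.38% and 3.41% of T cell gate cells. The rule genes chose the members, so their shares are a description only. Crabp1 was found in 48.6% and 71.5% of thinned members, against 0.459% and 2.84% of T cell gate cells. Fgf7 was found in 50.6% and 57.7%, and Bmp4 in 43.5% and 38.7%. Without thinning, a Wif1 UMI was present in 96.1% and 95.6%, a Crabp1 UMI in 60.6% and 77.5%, an Fgf7 UMI in 63.4% and 73.2% and a Bmp4 UMI in 58.0% and 64.6%. Mki67, a marker of dividing cells, was found in 4.91% and 3.17% of thinned members, against 5.35% and 6.39% in the T cell gate, and at the highest papilla density it stood at 5.73 and 4.79 CPM. Of thinned dense members, 18.3% and 15.1% held 2 or more UMIs from either cell cycle list, against 41.1% and 40.3% of the other members. This share grew with depth, so it is no estimate of dividing cells. It was 35.0% and 30.3% in dense members thinned to 3500 UMIs. In deep dense members thinned to 8000 UMIs it was 73.3% and 72.1%. Between the depth classes within a library, Ccl2 was the 1 gene with a large ratio lower in shallow than in deep dense members of both libraries, and 10 genes had one in the other direction, among them Hbb-bs, Lars2, Apod and Krt71.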

How the data were processed

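The deposited values were raw UMI counts per gene and barcode, made by the authors with 10x Genomics 3' v3 libraries, per the labels' protocols. Per the submitters' processing notes the tools were Cell Ranger 3.0.2 and Seurat (3.0.0, 3.1.0), with build mm10, also called GRCm38. The matrices held 13411 Fgf5-/- barcodes (97817173 UMIs) and 16973 control barcodes (140880809 UMIs). The libraries shared 59 barcode sequences, none of them a member in both, and 2 members of one library had a barcode found in the other.

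Members were found by the stated rule. The members and gene lists were chosen with earlier results of these data known. UMIs of members were summed per library and divided by the total (CPM). Ratios are log2 of Fgf5-/- over control with exact conditional Poisson 95% intervals, and levels and shares carry exact Poisson and Clopper-Pearson intervals (scipy 1.17.1). Other kept barcodes were assigned to gates by marker counts, in a fixed order. Thinning drew UMIs without replacement. Groups among members came from Leiden clustering (scanpy 1.11.5, leidenalg 0.10.2). Doublets were kept. Because the automatic threshold of Scrublet marked 0 control and 415 Fgf5-/- cells, an alternative left out the 4% of kept barcodes with the highest scores in each library. The ratio and interval code was tested on simulated data.

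Named were the rule genes, papilla, FGF, BMP, Wnt, Hedgehog and melanocyte list genes of at least 20 CPM, up to 6 genes of highest level of each other list, and the 15 largest ratios in each direction among genes not below 10% of their highest gate. Mitochondrial, ribosomal and unnamed genes were left out there. Other genes were chosen after their values were seen. Gene positions and transcript lengths are from GENCODE vM21 (GRCm38). Alternatives covered cell and marker filters, scaling with edgeR 4.0.16 (TMM) and DESeq2 1.42.0 size factors, level minimums and thinning. Of the largest ratios, 1 gene is not reported here.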

Additional observations from a re-analysis of the deposited data

Results flagged for a closer look

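Each group has 1 pooled library, so no sample could be set apart from its group. Some genes with a large ratio in all and in dense members had a large ratio of the opposite sign in another gate, and these differences were not tested. Ccl2 had log2 ratios of 2.70 in members, -1.01 in the T cell gate and -1.33 in the keratinocyte gate, where it was low. Maff, an immediate early gene, had 1.01 in members, -1.53 in the T cell gate and -1.24 in the myeloid gate. Cebpd had 1.58 in members and -1.46 in the myeloid gate, Tnfrsf12a 1.88 and -1.61, and the epithelial gene Sfn 1.90 and -1.16. Klf5, an epithelial transcription factor, rose in members and had -2.16 in the myeloid gate. In the other direction, Pou2f2 had -2.42 in members and 2.24 in the myeloid gate, Eif4ebp1 -1.20 in members and 1.26 in the endothelial gate, and Gsta4 -1.32 in members and 1.56 in the melanocyte gate. The myeloid gate holds 78 Fgf5-/- and 54 control cells, so its values rest on few cells.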

How the results depend on the processing

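No paired analysis was possible because each group is 1 pooled matrix whose barcodes are not mapped to samples, and for the same reason no sample could be left out in turn. The 130 higher and 164 lower large ratios became 842 and 953 with no level minimum, 272 and 345 at 50 CPM, and 59 and 68 at 200 CPM, where the number of genes compared changes. They became 80 and 79 with every member at equal weight. With the total taken without mitochondrial, ribosomal and haemoglobin genes 196 were higher. Deep dense members gave 213 higher and shallow dense members 90 lower, settings chosen after the data were seen, as were dense members (165 and 168). TMM gave 126 and 170, and DESeq2 size factors 135 and 154. The log2 ratio of the member share, -0.13, was -0.61 with the rule on thinned barcodes, -1.82 among deep and 0.53 among shallow dense members, and -0.04 to -0.25 otherwise. Some named genes changed sign. Npy changed to 0.25 with 3 of 4 rule genes detected and to 0.30 in deep dense members. Krt71 changed to 0.35 under the thinned rule. In shallow dense members Ccnd2 changed to -0.13, Ptn to -0.30, Sfn to -0.14 and Sprr1a to -0.43. The cause was not tested. Under every alternative at least 115 of the 130 higher and 161 of the 164 lower genes kept their sign. Shallow members limit genes of low level such as Sox2 and Bmp3.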
